A study of Mus musculus with 8 samples.

Results

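Expression of 10 genes for basement membrane proteins and for a collagen chaperone was followed in mouse embryos made from oocytes with or without Tet3, which encodes a dioxygenase that oxidizes 5-methylcytosine. The genes are Lama1, Lama5, Lamb1, Lamc1, Col4a1, Col4a2, Nid2, Hspg2, Sparc and Serpinh1. They were taken by symbol from the 23234 genes listed in each of 8 libraries, and all 10 were found. Pooled whole embryos gave 4 groups of 2 libraries each: Tet3-null blastocysts, wild-type blastocysts, Tet3-null 2-cell embryos and wild-type 2-cell embryos. The Tet3-null oocytes came from Zp3-Cre females whose Tet3 alleles were a floxed and a null one, and Zp3-Cre acts in growing oocytes. The wild-type oocytes came from females homozygous for the floxed allele, for which the labels do not say whether Cre was present. All females were superovulated, and every embryo was fertilized in vitro with CAST/EiJ sperm and therefore also received a paternal Tet3 allele, so Tet3-null describes the oocyte and not the whole embryo. Zygotes with 2 pronuclei were cultured, and pools of 7 blastocysts were taken at 96 h and pools of 10 2-cell embryos at 30 h. The labels do not tell whether replicate pools were drawn from different females or on different days, so the p-values below measure the spread between these libraries, which may be technical.

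A basement membrane is a thin sheet of extracellular matrix built on laminin, a trimer of an alpha, a beta and a gamma chain, and on a network of type IV collagen. Nidogens link the laminin and collagen networks, and the heparan sulphate proteoglycan perlecan binds to both. In the mouse blastocyst the primitive endoderm and the trophectoderm lay down such sheets, among them the one that becomes Reichert's membrane, and parietal endoderm later secretes its components in large amounts. Collagen chains are folded in the endoplasmic reticulum with the help of a collagen-specific chaperone, the product of Serpinh1.

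Expression is given as FPKM, fragment counts corrected for transcript length and sequencing depth, as the authors deposited it. FPKM is scaled by gene length, so levels may be compared between genes. Read totals are unknown. The summed FPKM was 924556 to 956335 in blastocyst libraries and 600495 to 634816 in 2-cell libraries. Tet3 was 3.28 and 4.41 FPKM in the Tet3-null 2-cell embryos and 10.8 and 7.54 FPKM in the wild-type 2-cell embryos, without overlap, although the difference did not pass the test (log2 change -1.06, limma adjusted p = 0.0690). In blastocysts Tet3 was 0.519 and 0.412 FPKM in the Tet3-null libraries and 0.957 and 0.459 FPKM in the wild-type libraries, and the groups overlapped. The second Tet3-null 2-cell library stood somewhat apart, with 7101 genes listed at 0 against 5549 to 6080 in the other 2-cell libraries. Its correlation with the other library of its group, 0.943 across genes on the log2(FPKM + 1) scale, was the lowest of the 4 groups, the others being at 0.963 to 0.982.

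The stretch around the transcription start was available for 7 of the 10 genes, as 300 bases that run from 250 bases before to 50 bases after the start, in RefSeq on GRCm38.p6. The FPKM were made on the build mm9, so these coordinates are not those of the expression files. Lama1, Lamc1 and Nid2 had no entry. Col4a1 and Col4a2 are neighbours read in opposite directions from a shared start region, and their windows show this, since 78 bases, in capitals, belong to both. The Col4a1 window lies at chr8:11312777-11313076 on the minus strand and the Col4a2 window at chr8:11312555-11312854 on the plus strand. Each is written 5′ to 3′ on the strand of its gene, so the shared stretch appears in one as the reverse complement of the other.
Col4a1: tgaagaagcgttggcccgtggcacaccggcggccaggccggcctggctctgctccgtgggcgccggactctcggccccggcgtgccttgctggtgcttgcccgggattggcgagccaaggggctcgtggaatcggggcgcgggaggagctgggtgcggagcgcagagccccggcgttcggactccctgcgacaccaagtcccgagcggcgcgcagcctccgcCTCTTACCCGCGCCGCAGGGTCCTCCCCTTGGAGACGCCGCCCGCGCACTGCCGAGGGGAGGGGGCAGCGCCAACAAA
Col4a2: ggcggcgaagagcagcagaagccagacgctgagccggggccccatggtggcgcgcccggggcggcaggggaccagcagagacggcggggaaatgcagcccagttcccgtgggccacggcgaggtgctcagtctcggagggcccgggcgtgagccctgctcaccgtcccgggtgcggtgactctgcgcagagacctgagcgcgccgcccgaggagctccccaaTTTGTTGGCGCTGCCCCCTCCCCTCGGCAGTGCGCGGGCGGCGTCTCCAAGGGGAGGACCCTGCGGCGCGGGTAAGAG

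Serpinh1 and Sparc are shown next because they stood, with Lama1, farthest below wild type in Tet3-null blastocysts and because their start regions differ in CG dinucleotides, the sites of DNA methylation. The Serpinh1 window lies at chr7:99353190-99353489 and the Sparc window at chr11:55420031-55420330, both on the minus strand. Capitals mark each CG.
Serpinh1: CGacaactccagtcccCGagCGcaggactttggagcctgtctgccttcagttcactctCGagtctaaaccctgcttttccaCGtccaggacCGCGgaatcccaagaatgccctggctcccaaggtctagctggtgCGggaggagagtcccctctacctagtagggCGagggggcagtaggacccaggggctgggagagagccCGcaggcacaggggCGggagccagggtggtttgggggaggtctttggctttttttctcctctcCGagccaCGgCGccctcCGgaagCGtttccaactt
Sparc: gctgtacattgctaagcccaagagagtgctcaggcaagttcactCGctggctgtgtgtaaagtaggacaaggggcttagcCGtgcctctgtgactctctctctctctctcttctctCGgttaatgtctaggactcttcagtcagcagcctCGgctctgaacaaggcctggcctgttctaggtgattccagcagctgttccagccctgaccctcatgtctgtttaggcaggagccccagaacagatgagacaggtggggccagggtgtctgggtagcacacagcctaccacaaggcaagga

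The Serpinh1 window holds 16 CG dinucleotides and the Sparc window 4, against a median of 7 over all 32851 windows in the RefSeq table. Col4a1 has 37 CG, more than 94.4% of all windows, Col4a2 has 33, Hspg2 27, Lama5 24 and Lamb1 18. Sparc is thus the only member of the 7 below the median of all windows. A search of both strands for short motifs found the GC box GGGCGG in 6 of the 7 windows, against 35.7% of all windows. The 1 match of Col4a1 lies in the stretch shared with Col4a2, so it is counted for both genes. The 6 windows with a match held 16 to 37 CG, against the median of 7, and the GC box itself contains a CG. The CCAAT box was in 3 of the 7, against 37.4% of all windows. The GATA box AGATAA, the SOX box ACAAT and the TATA box TATAAA were in 0 of the 7, against 11.2%, 31.0% and 13.6% of all windows. A match describes the letters of the window and is not a binding site, and methylation was not measured here.

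In blastocysts, genes of this group were mostly at lower levels in the Tet3-null libraries, but none passed the test across all genes. Over the 10 genes, 7 had both Tet3-null libraries below both wild-type libraries and 0 had both above, where 19% of all genes listed lay apart in the lower and 14.8% in the higher direction. The Col4a2 and Nid2 groups missed overlapping by narrow margins, and Col4a2 overlapped under other scalings. After median-of-ratios scaling 6 of 10 lay apart lower, where 16.3% of all genes listed did, and after quantile normalization 6 of 9 did, where 21.7% of all genes tested did. The difference was tested with limma on log2(FPKM + 1) over the 13549 genes that reached 1 FPKM in 2 or more libraries, a filter that all but Hspg2 passed, with Benjamini-Hochberg adjustment over all of them. Of the 9 tested, 0 passed an adjusted p of 0.05, where 0.0664% of all genes tested passed. Unadjusted p was under 0.05 for 2 of the 9, Lama1 and Serpinh1, where the share over all genes was 5.46%. The median log2 change of the 9 was -0.41, against -0.02 for all genes tested, and 9 of 9 were below 0, against 54.2% of all genes. The genes were chosen with earlier results of these data known. These counts and shares are therefore a description and not an independent test. Without the first wild-type blastocyst library the median was -0.27, and without the second it was -0.55. The direction of Lama5 and Col4a2 turned to at most 0.04 under other scalings, and that of Lama5 and Col4a1 to at most 0.07 with a library left out. An exact permutation test of 2 libraries against 2 cannot give a p below 0.333. In pools of whole embryos, fewer cells of a type and less RNA per cell cannot be told apart.

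**Figure D1:**
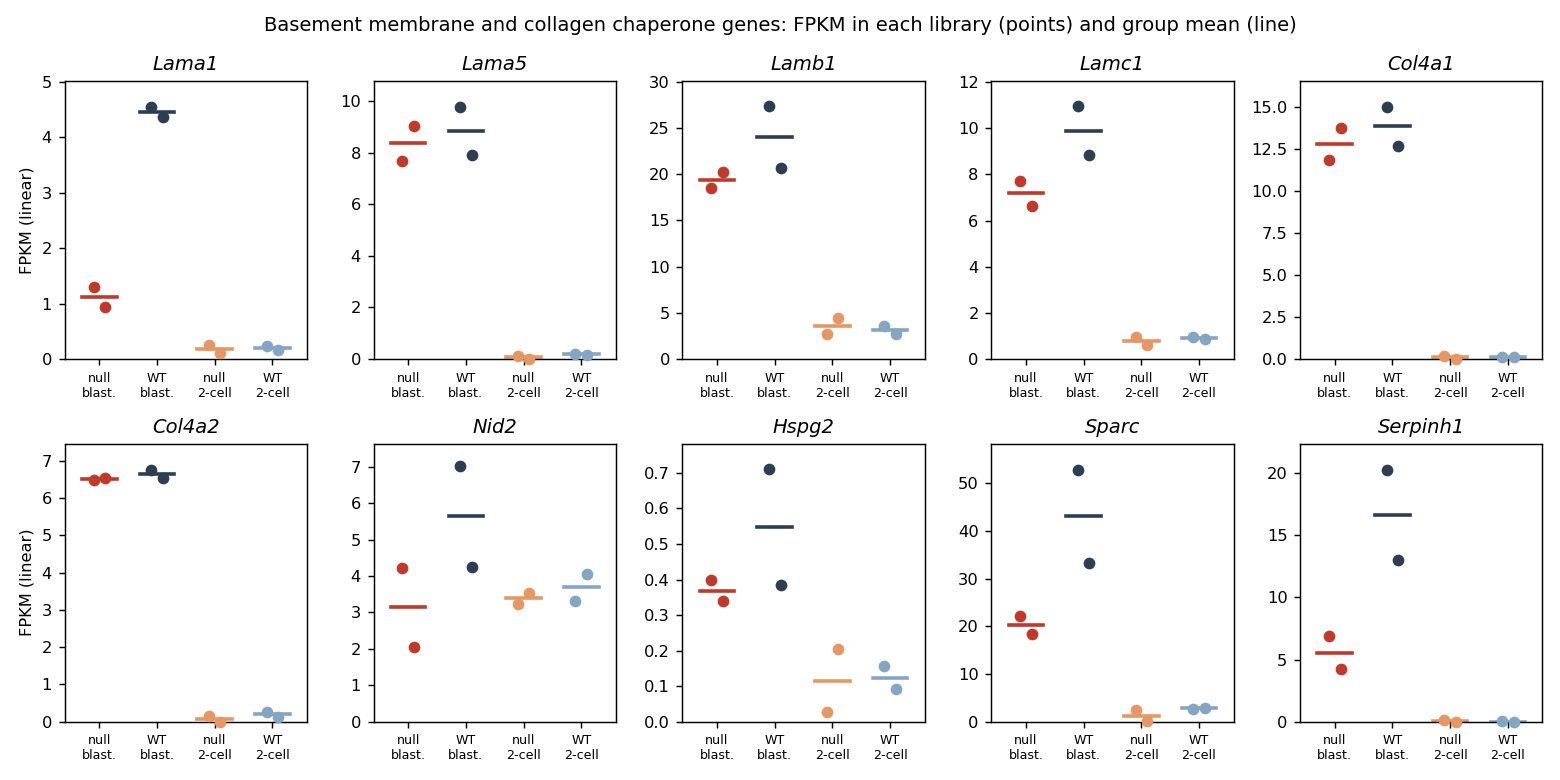
FPKM of the 10 genes on linear axes, 1 panel per gene, with a point for each library and a line at each group mean, and Tet3-null left of wild type within each stage. In blastocysts Lama1 sits at 0.943 to 1.31 FPKM in the Tet3-null and 4.37 to 4.55 FPKM in the wild-type libraries, while the Col4a1 points of the 2 groups interleave.

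Lama1 encodes the alpha chain of the laminin that is made first in the mouse embryo. Its level was 1.31 and 0.943 FPKM in the Tet3-null blastocysts, against 4.55 and 4.37 FPKM in the wild-type blastocysts. The wild-type mean was 3.97 times the Tet3-null mean, and the gap between the groups exceeded the spread within either. The log2 change was -1.37 ± 0.18 (SE), with a 95% interval of -1.78 to -0.95 and an unadjusted p of 0.000101 in limma. The adjusted p was 0.135, so Lama1 was not called. In the 2-cell embryo Lama1 was at 0.256 and 0.113 FPKM in the Tet3-null and 0.243 and 0.169 FPKM in the wild-type libraries, and these overlapped.

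Lama5 encodes the alpha chain of a second laminin, which shares the beta and gamma chains of the first. It was at 7.69 and 9.05 FPKM in the Tet3-null blastocysts and 9.78 and 7.90 FPKM in the wild-type blastocysts, and the groups overlapped. Its log2 change was -0.07 with an interval of -0.51 to 0.37. At the 2-cell stage Lama5 was listed at 0.117 and 0.00664 FPKM in the Tet3-null and 0.214 and 0.169 FPKM in the wild-type libraries.

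Lamb1 and Lamc1 encode the beta and gamma chains that both laminins use. Lamb1 was at 18.5 and 20.2 FPKM in the Tet3-null and 27.4 and 20.7 FPKM in the wild-type blastocysts. Lamc1 was at 7.71 and 6.64 FPKM in the Tet3-null and 10.95 and 8.82 FPKM in the wild-type blastocysts. Neither gene overlapped between the groups, and for both the first wild-type library was the highest of the 4. The log2 change was -0.29 for Lamb1 (limma adjusted p = 1) and -0.41 for Lamc1 (adjusted p = 0.990). Without the first wild-type library it was -0.09 for Lamb1 and -0.27 for Lamc1, and without the second it was -0.48 for Lamb1 and -0.55 for Lamc1. At the 2-cell stage Lamb1 was already at 2.69 and 4.41 FPKM in the Tet3-null and 3.58 and 2.71 FPKM in the wild-type libraries. Lamc1 was there at 0.948 and 0.601 FPKM in the Tet3-null and 0.942 and 0.883 FPKM in the wild-type libraries.

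Ratios between laminin chains, taken within a library, set Lama1 apart from Lama5 and Lamc1 in blastocysts. The ratio of Lama1 to Lama5 FPKM was 0.170 and 0.104 in the Tet3-null blastocysts, against 0.466 and 0.553 in the wild-type blastocysts. The ratio of Lama1 to Lamc1 was 0.169 and 0.142 in the Tet3-null and 0.416 and 0.496 in the wild-type blastocysts. Both ratios lay apart between the groups, and a ratio within a library does not depend on its scale factor. Both rest on the same Lama1 values, so they are not separate evidence. The ratio of Lama5 to Lamc1 lay apart the other way, at 0.998 and 1.36 in the Tet3-null and 0.893 and 0.896 in the wild-type blastocysts. The ratio of Lamb1 to Lamc1 was 2.40 and 3.04 in the Tet3-null blastocysts and 2.50 and 2.35 in the wild-type blastocysts. The alpha chains together, Lama1 plus Lama5 over Lamc1, were at 1.17 and 1.50 in the Tet3-null and 1.31 and 1.39 in the wild-type blastocysts. The last 2 ratios overlapped between the groups. The 4 laminin genes summed to 35.2 and 36.8 FPKM in the Tet3-null blastocysts, against 52.7 and 41.8 FPKM in the wild-type blastocysts.

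**Figure D2:**
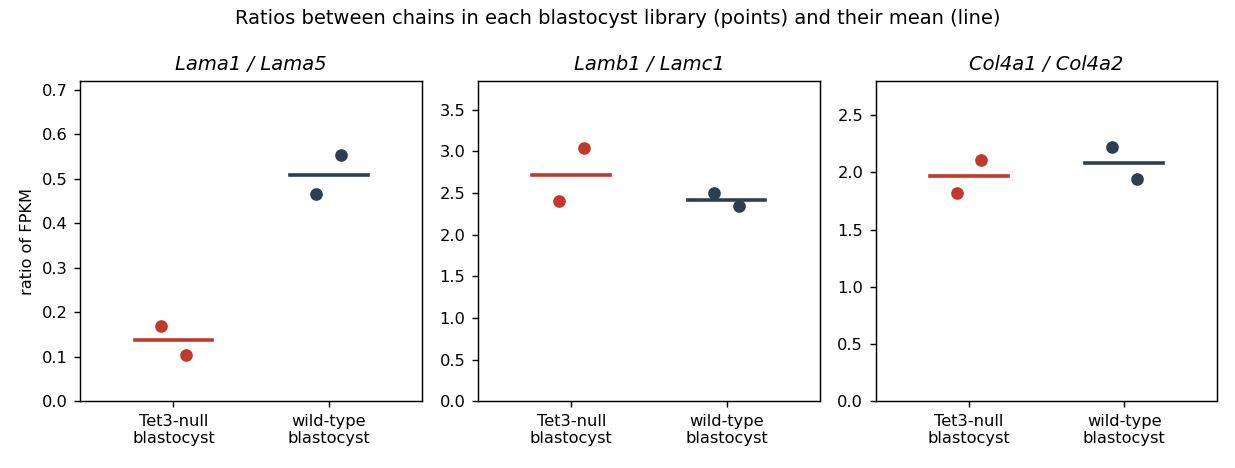
Ratios of FPKM between laminin chains and between type IV collagen chains in each blastocyst library, Tet3-null left of wild type. Lama1 over Lama5 is at 0.104 to 0.170 in the Tet3-null and 0.466 to 0.553 in the wild-type libraries, whereas Col4a1 over Col4a2 overlaps.

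Col4a1 and Col4a2, whose start regions share the stretch printed in capitals, encode the alpha 1 and alpha 2 chains, which join in the common type IV collagen trimer. Col4a1 was at 11.8 and 13.8 FPKM in the Tet3-null blastocysts and 15.02 and 12.7 FPKM in the wild-type blastocysts. Col4a2 was at 6.50 and 6.53 FPKM in the Tet3-null and 6.77 and 6.55 FPKM in the wild-type blastocysts. Col4a1 overlapped between the groups, and the Col4a2 groups were apart by a narrow margin. The wild-type mean was 1.08 times the Tet3-null mean for Col4a1 and 1.02 times for Col4a2. The log2 changes were -0.11, with an interval of -0.54 to 0.33, and -0.03, with an interval of -0.43 to 0.37. The ratio of Col4a1 to Col4a2 was 1.82 and 2.11 in the Tet3-null and 2.22 and 1.94 in the wild-type blastocysts. In all 4 2-cell libraries both collagen genes were at or below 0.253 FPKM, and Col4a2 was listed at 0 in the second Tet3-null library.

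Nid2, a nidogen, was at 4.23 and 2.05 FPKM in the Tet3-null and 7.02 and 4.25 FPKM in the wild-type blastocysts. The higher Tet3-null library and the lower wild-type library were nearly level. The log2 change was -0.70 with an interval of -1.44 to 0.04 (limma adjusted p = 0.949). It was -1.09 without the first and -0.31 without the second Tet3-null library, and -0.40 without the first wild-type library. Nid2 was the member with the most even level across stages, at 3.24 and 3.54 FPKM in the Tet3-null and 3.33 and 4.05 FPKM in the wild-type 2-cell embryos. Hspg2, which encodes perlecan, stayed under 1 FPKM in every library. It was at 0.398 and 0.339 FPKM in the Tet3-null and 0.711 and 0.385 FPKM in the wild-type blastocysts, and the groups overlapped. In 2-cell embryos it was at 0.0264 and 0.205 FPKM in the Tet3-null and 0.156 and 0.0918 FPKM in the wild-type libraries.

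Sparc encodes a secreted glycoprotein that binds collagen and is abundant in parietal endoderm. It was the highest member in both blastocyst groups by mean, at 22.2 and 18.4 FPKM in the Tet3-null and 52.8 and 33.2 FPKM in the wild-type blastocysts. The groups did not overlap, and the Tet3-null mean of 20.3 ± 2.70 FPKM stood against a wild-type mean of 43.02 ± 13.9 FPKM (SD, n = 2 each), and wild type was 2.12-fold higher than Tet3-null. On the log2 scale the change was -1.01 ± 0.51 (SE) with an interval of -2.22 to 0.19 and a limma adjusted p of 1. The spread of a gene was estimated over all 4 groups, and the 2 Tet3-null 2-cell libraries were far apart for Sparc. In 2-cell embryos Sparc was at 2.41 and 0.0506 FPKM in the Tet3-null libraries, against 2.73 and 2.96 FPKM in the wild-type libraries.

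Serpinh1 encodes HSP47, the chaperone that binds procollagen in the endoplasmic reticulum. It was at 6.90 and 4.22 FPKM in the Tet3-null blastocysts, against 20.3 and 13.0 FPKM in the wild-type blastocysts. The groups did not overlap, and the wild-type mean was 2.99 times the Tet3-null mean. The log2 change was -1.43 ± 0.28 (SE), with an interval of -2.09 to -0.77 and an unadjusted p of 0.00135. The limma adjusted p was 0.450, so Serpinh1 was not called. Serpinh1 was hardly detected at the 2-cell stage, at 0.143 and 0 FPKM in the Tet3-null and 0.0349 and 0 FPKM in the wild-type libraries.

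The order of the genes by mean level was similar in both blastocyst groups except for Serpinh1. In Tet3-null blastocysts Sparc and Lamb1 came first and overlapped, followed by Col4a1, Lama5, Lamc1, Col4a2, Serpinh1, Nid2, Lama1 and Hspg2. Of these neighbours, Lama5 and Lamc1, Col4a2 and Serpinh1, and Serpinh1 and Nid2 overlapped. In wild-type blastocysts Sparc and Lamb1 again came first, without overlap, and Serpinh1 came next, overlapping with Col4a1. Serpinh1 thus ranked 7 of 10 in the Tet3-null and 3 of 10 in the wild-type blastocysts. In wild-type blastocysts Lamc1 and Lama5 followed, then Col4a2, Nid2, Lama1 and Hspg2, and the pairs Lamc1 and Lama5, Col4a2 and Nid2, and Nid2 and Lama1 overlapped. The 10 genes summed to 87.3 and 82.2 FPKM in the Tet3-null blastocysts, against 155 and 112 FPKM in the wild-type blastocysts.

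In 2-cell embryos the levels were low, and most of the genes overlapped between the genotype groups. Lamb1 and Nid2 were the 2 genes at 1 FPKM or more in all 4 2-cell libraries. By mean level the first 4 were Lamb1, Nid2, Sparc and Lamc1 in Tet3-null and Nid2, Lamb1, Sparc and Lamc1 in wild-type embryos. Lamb1 and Nid2 overlapped in both genotypes, and so did Sparc and Lamc1 in Tet3-null and Lamb1 and Sparc in wild-type embryos. The other 6 genes were each at or below 0.256 FPKM in every 2-cell library. Over the 10 genes, 2 had both Tet3-null libraries below both wild-type libraries, Lama5 and Sparc, and 0 had both above, where 25.7% of all genes listed lay apart in the lower and 9.57% in the higher direction. These counts depend on the scaling, with 1 lower and 0 higher of 10 after median-of-ratios scaling, where 16% of all genes listed lay apart lower and 17.2% higher. After quantile normalization they were 0 lower and 3 higher of 9, where 21.4% of all genes tested lay apart lower and 22.4% higher. Of the 9 tested genes, 0 passed the adjusted p of 0.05 in limma and 0 had an unadjusted p under 0.05, where 2.72% and 23.7% of all genes did. The filter bears on these counts, because 6 of the 9 reached 1 FPKM in 2 libraries only through the blastocysts. On the log2(FPKM + 1) scale the 2-cell change of such low genes stays small. These counts, and the median that follows, therefore say little about genotype for those 6. The median log2 change was -0.09, against -0.17 for all genes. Median-of-ratios scaling moved the median of all genes to 0.02, and quantile normalization moved it to 0.0037. Under these scalings Lama1, Lamc1 and Nid2, and under the second also Lama5 and Col4a1, turned to values above 0. Sparc had a log2 change of -1.02 ± 0.51 (SE) and a limma adjusted p of 0.275. That value rests on the second Tet3-null library, in which Sparc was at 0.0506 FPKM, and it was -0.17 without that library. Without the first Tet3-null library the Sparc change was -1.87, and either fit leaves 1 library in the Tet3-null 2-cell group.

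Whether the genotype effect differed between the stages was tested as the blastocyst log2 change minus the 2-cell log2 change. Of the 9 genes, 0 passed the adjusted p of 0.05 in limma, where 0.14% of all genes tested did, and 2 had an unadjusted p under 0.05, where 14.4% of all genes did. For Lama1 the difference was -1.34 ± 0.25 (SE), with an unadjusted p of 0.00097 and an adjusted p of 0.120. It was -1.25 without the first Tet3-null 2-cell library, a fit that leaves 1 library in that group. Over the alternatives that keep all 8 libraries, its limma adjusted p ran from 0.0921 to 0.275. For Serpinh1 the difference was -1.50 ± 0.40 (SE), with a limma adjusted p of 0.199, and of 0.210 to 0.344 over the same alternatives. At the 2-cell stage Serpinh1 was at or under 0.143 FPKM in both genotypes. For Sparc the difference was 0.01 (adjusted p = 0.999), but 1.21 with a pseudocount of 0.1. It was 0.86 without the first and -0.84 without the second Tet3-null 2-cell library, and it was not called in any of these.

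**Figure D3:**
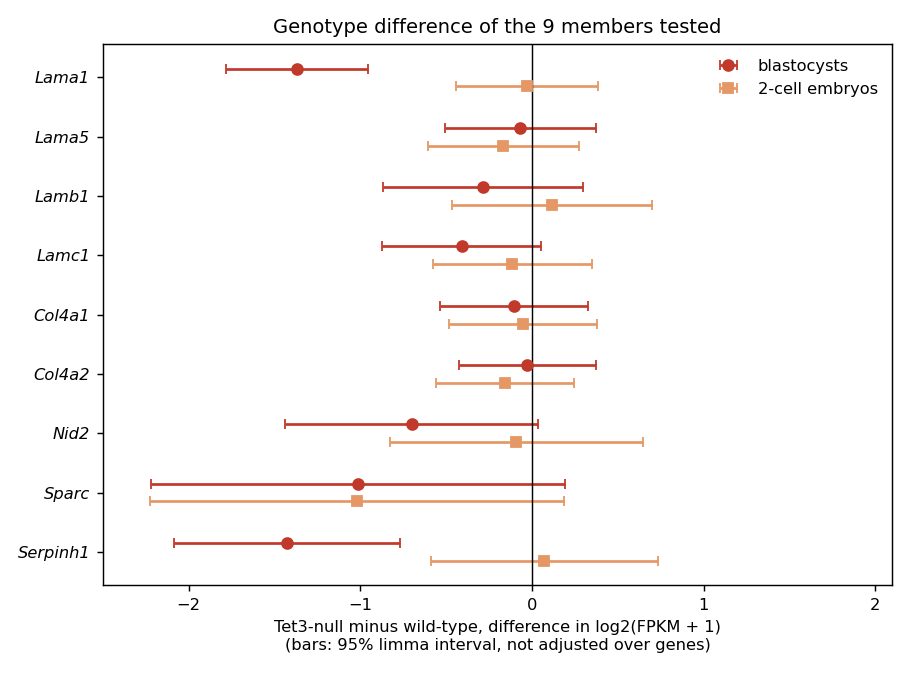
Log2 changes of the 9 tested genes between Tet3-null and wild-type embryos in blastocysts and in 2-cell embryos, as points with 95% intervals, on the log2(FPKM + 1) scale. The blastocyst intervals of Lama1, -1.78 to -0.95, and of Serpinh1, -2.09 to -0.77, lie below 0, and that of Sparc spans it.

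Between the stages, most of these genes were far higher in blastocysts in both genotypes. All 10 had both blastocyst libraries above both 2-cell libraries among wild-type embryos, where 30.1% of all genes listed did. Among Tet3-null embryos 9 of 10 did, all but Nid2, where 32.9% of all genes listed did. The limma test called 8 of 9 genes higher in blastocysts in each genotype, where 38.9% of all genes were called higher among Tet3-null and 35.8% among wild-type embryos. The filter bears on that count, because 6 of the 9 reached 1 FPKM in 2 libraries only through the blastocysts. The log2(FPKM + 1) scale understates the change of genes that were near 0 at the 2-cell stage.

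Col4a1 rose by 3.66 on the log2 scale in Tet3-null embryos, and by 3.71 in the wild-type embryos. Col4a2 rose by 2.81 in the Tet3-null and 2.68 in the wild-type embryos, and Lama5 by 3.14 in the Tet3-null and 3.04 in the wild-type embryos. Sparc rose by 3.49 in the Tet3-null and 3.48 in the wild-type embryos, and the Tet3-null value was 4.34 without the first and 2.64 without the second Tet3-null 2-cell library. For Lamb1 the rise was 2.19 in the Tet3-null and 2.59 in the wild-type embryos, and for Lamc1 it was 2.21 in the Tet3-null and 2.50 in the wild-type embryos. Lama1 rose by 0.84 in the Tet3-null embryos (limma adjusted p = 0.00355) and by 2.18 in the wild-type embryos (adjusted p = 3.08e-05). Serpinh1 rose by 2.59 in the Tet3-null and 4.08 in the wild-type embryos, the largest rise of the 9 in wild type. The difference between genotypes in each of these rises is the difference between the stage-specific genotype effects, which did not pass the adjusted test. Nid2 was the tested gene not called in either genotype, at -0.14 in Tet3-null (adjusted p = 0.703) and 0.47 in the wild-type embryos (adjusted p = 0.204). Hspg2 was tested when no filter was applied, and its stage effect was then 0.30 in Tet3-null (adjusted p = 0.132) and 0.45 in the wild-type embryos (adjusted p = 0.0403).

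The other laminin chains did not follow a single pattern by stage. Of 7 genes, 6 were tested, and in each genotype 3 were higher in blastocysts and 3 lower. A split of this kind was near that of all 13549 genes tested. Of those, 5276 were called higher and 4752 lower among Tet3-null embryos, and 4857 higher and 5207 lower among wild-type embryos. The filter bears on the count, because Lamb2 reached 1 FPKM only in blastocysts, and Lama4 and Lamc3 only in 2-cell embryos. Lamb2, a beta chain, rose by 1.02 in the Tet3-null and 1.18 in the wild-type embryos. Lama4 fell by 1.83 in the Tet3-null and fell by 1.49 in the wild-type embryos, and Lamc3 fell by 0.93 in the Tet3-null and fell by 1.45 in the wild-type embryos. The median genotype effect of the list in blastocysts was 0.07, and 0 were called, with 0 at an unadjusted p under 0.05 in limma.

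Of 22 other basement membrane components, 6 were tested, and 5 were higher and 1 lower in blastocysts in each genotype. Over all genes tested, 38.9% were called higher among Tet3-null and 35.8% among wild-type embryos. The filter bears on the count, because Tinagl1 and Nid1 reached 1 FPKM only in blastocysts and Col4a3 only in 2-cell embryos. The count is therefore a description of the genes that passed. Tinagl1, a secreted laminin-binding protein, rose by 4.97 in the Tet3-null and 5.26 in the wild-type embryos. Nid1, the other nidogen, rose by 2.50 in the Tet3-null and 2.61 in the wild-type embryos. Col4a3, a collagen chain of specialised basement membranes, fell by 2.59 in the Tet3-null and fell by 2.08 in the wild-type embryos. In blastocysts 0 of the 6 were called for genotype, and the median was -0.34. Unadjusted p was under 0.05 in limma for 2, where the share over all genes tested was 5.46%. Nid1 was at 4.96 and 5.41 FPKM in the Tet3-null and 8.06 and 8.77 FPKM in the wild-type blastocysts, without overlap (log2 change -0.61, adjusted p = 0.856). In the 2-cell genotype comparison 1 of the 6 was called, where 2.72% of all genes tested were. Fbln1, a fibulin of basement membranes, was lower in Tet3-null 2-cell embryos, at 0.459 and 0.152 FPKM against 1.61 and 1.56 FPKM in the wild-type 2-cell embryos (log2 change -0.99, limma adjusted p = 0.0481). That call held in 1 of 14 alternatives, without the first Tet3-null 2-cell library, and was lost when any of the other 7 libraries was left out, with an adjusted p of up to 0.376.

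Of 24 genes of collagen modification, folding and export, 20 were tested. In blastocysts 0 were called for genotype, and the median was -0.09. Unadjusted p was under 0.05 in limma for 3, where the share over all genes tested was 5.46%. Those 3 are named after their values were seen. Plod2, a collagen lysyl hydroxylase, was at 11.6 and 11.8 FPKM in the Tet3-null and 16.6 and 16.2 FPKM in the wild-type blastocysts. P4hb, protein disulphide isomerase and the beta subunit of prolyl 4-hydroxylase, was at 68.0 and 55.2 FPKM in the Tet3-null and 115 and 98.1 FPKM in the wild-type blastocysts. Sec24d, a subunit of the coat of export vesicles, was at 1.31 and 0.635 FPKM in the Tet3-null and 2.06 and 2.22 FPKM in the wild-type blastocysts. All 3 lay apart, with limma adjusted p of 0.860 for Plod2, 0.784 for P4hb and 0.913 for Sec24d. In the 2-cell genotype comparison 1 of the 20 was called, where 2.72% of all genes tested were. It was Leprel4, a relative of the collagen prolyl 3-hydroxylases now named P3h4. Leprel4 was lower in Tet3-null 2-cell embryos, at 0.0395 and 0 FPKM against 2.202 and 2.53 FPKM in the wild-type 2-cell embryos. It passed the filter only through the wild-type 2-cell libraries, the group in which it was high. Its call is therefore a description, and it was lost without the filter. Its log2 change was -1.72 with a limma adjusted p of 0.0351, a call that held in 3 of 14 alternatives, both other scalings and without the first Tet3-null 2-cell library, and was lost without any of the other 7 libraries, with an adjusted p of up to 0.338.

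By stage, 10 of the 20 collagen synthesis genes were higher and 7 lower in blastocysts among Tet3-null embryos. Among wild-type embryos 9 were higher and 7 lower. All 13549 genes tested gave 5276 higher and 4752 lower among Tet3-null, and 4857 higher and 5207 lower among wild-type embryos. The collagen synthesis share called lower was near that of all genes. These all-gene counts also stand beside those of the receptors, proteases and inhibitors that follow. Plod2 rose by 3.19 in the Tet3-null and 4.02 in the wild-type embryos, and Crtap, a partner of prolyl 3-hydroxylase, by 2.82 in the Tet3-null and 2.71 in the wild-type embryos. Glt25d2, a collagen galactosyltransferase, fell by 2.29 in both, and Leprel2 fell by 2.27 in the Tet3-null and fell by 2.15 in the wild-type embryos. Among 22 matrix receptors 16 were tested, with 6 higher and 6 lower in blastocysts among Tet3-null and 6 higher and 7 lower among wild-type embryos. Sdc4, a syndecan, rose by 7.68 in the Tet3-null and 7.36 in the wild-type embryos. Itgb1, the beta chain of most laminin-binding integrins, rose by 2.65 in the Tet3-null and 2.15 in the wild-type embryos, and Itga9 fell by 4.85 in the Tet3-null and fell by 3.90 in the wild-type embryos. Sdc1, another syndecan, fell by 1.43 in the Tet3-null and fell by 3.08 in the wild-type embryos. The median genotype effect in blastocysts was 0.02 for the receptors and 0.06 for 11 matrix proteases and inhibitors, of which 7 were tested. Of either list 0 were called. Unadjusted p was under 0.05 in limma for 1 of each, where the share over all genes tested was 5.46%. These were Sdc1, at 3.17 and 2.48 FPKM in the Tet3-null and 1.31 and 0.755 FPKM in the wild-type blastocysts, and Plau, a plasminogen activator, at 2.39 and 2.196 FPKM in the Tet3-null and 1.42 and 1.53 FPKM in the wild-type blastocysts. By stage, 3 proteases and inhibitors were higher and 2 lower in Tet3-null blastocysts, and 2 were higher and 1 lower in wild-type blastocysts. Timp3, a metalloproteinase inhibitor, rose by 1.38 in the Tet3-null and 1.57 in the wild-type embryos, and Mmp2, a gelatinase, fell by 2.75 in the Tet3-null and fell by 2.16 in the wild-type embryos. Plau rose by 1.44 in the Tet3-null and 0.91 in the wild-type embryos. Of 11 genes of interstitial matrix only Col5a1 and Fn1 were tested, and both rose by stage in both genotypes, while the fibrillar collagen gene Col3a1 was at or below 0.0134 FPKM in every library.

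**Figure D4:**
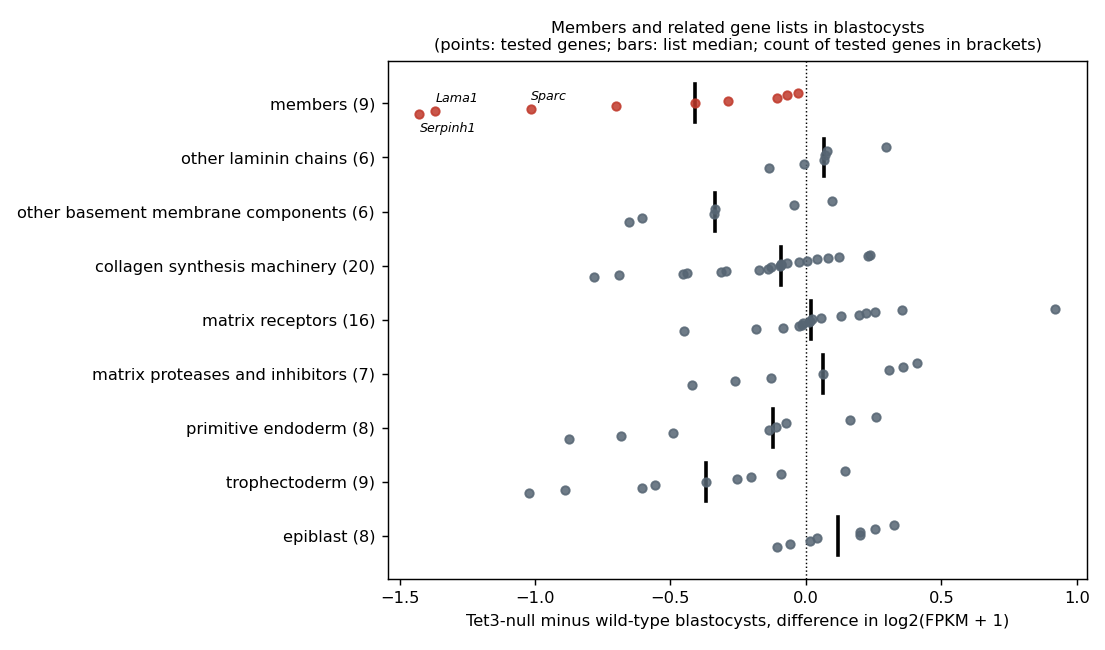
Log2 changes between Tet3-null and wild-type blastocysts of the tested genes in the member group, the related gene lists and 3 cell type marker lists, with the list medians marked. The members' median is -0.41, that of the other basement membrane components -0.34 and that of the trophectoderm markers -0.37, against 0.02 for the matrix receptors.

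Markers of the tissues that make basement membrane were read beside these genes. Of 12 primitive endoderm markers, 8 were tested, 0 were called in blastocysts, and the median was -0.12. Unadjusted p was under 0.05 in limma for 2, where the share over all genes tested was 5.46%. Their summed FPKM was 487 and 458 in the Tet3-null and 434 and 410 in the wild-type blastocysts. Gata6 was at 109 and 119 FPKM in the Tet3-null and 107 and 96.4 FPKM in the wild-type blastocysts. Gata4, which comes on later in primitive endoderm, was at 1.97 and 1.68 FPKM in the Tet3-null and 4.23 and 2.91 FPKM in the wild-type blastocysts. Gata4 was higher in 2-cell embryos, at 12.7 and 4.54 FPKM in the Tet3-null and 12.1 and 16.4 FPKM in the wild-type libraries. Its stage change was -1.63 in the Tet3-null and -1.74 in the wild-type embryos, and both were called. Over the 12, 6 lay apart lower in Tet3-null blastocysts, among them Gata4, Sox7 and Cubn, and 2 lay apart higher, Gata6 and Dab2. Of the 8 tested, which leave out Sox7, 4 lay apart lower and 2 higher. Over all genes listed the shares were 19% lower and 14.8% higher. Foxa2 and Sox17 were low, with Sox17 at or under 1.30 FPKM in blastocysts.

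The 9 trophectoderm markers summed to 2983 and 2739 FPKM in the Tet3-null and 4529 and 4210 FPKM in the wild-type blastocysts. Of these, 6 lay apart lower in Tet3-null blastocysts and 0 higher, 0 were called, 4 had an unadjusted p under 0.05 in limma, and the median was -0.37. Over all genes listed 19% lay apart lower and 14.8% higher. The share of all genes tested with an unadjusted p under 0.05 in limma was 5.46%. Krt8, a trophectoderm keratin, was at 571 and 527 FPKM in the Tet3-null and 1078 and 958 FPKM in the wild-type blastocysts. The 8 epiblast markers summed to 298 and 325 FPKM in the Tet3-null and 299 and 282 FPKM in the wild-type blastocysts, with a median of 0.12. In 2-cell embryos 1 of the 9 trophectoderm markers was called for genotype, where 2.72% of all genes tested were. It was Gata3, at 9.26 and 12.3 FPKM in the Tet3-null and 5.28 and 5.26 FPKM in the wild-type libraries (log2 change 0.90, limma adjusted p = 0.0449). That call held in 5 of 14 alternatives, with an adjusted p of up to 0.388, and was lost without either wild-type 2-cell library or any of the 4 blastocyst libraries. The part of the trophectoderm and primitive endoderm markers in the lower Lama1, Serpinh1 and Sparc values was not tested. Oocyte markers summed to 1.20 to 2.19 FPKM in blastocysts and 1497 to 2331 FPKM in 2-cell embryos, as the labelled stages have it. Cumulus and granulosa markers summed to 0.461 to 0.966 FPKM and fibroblast markers to 0.414 to 0.739 FPKM in blastocysts, with Amh at 0 in all 8 libraries. Both sums were higher in 2-cell embryos. There the cumulus and granulosa markers summed to 14.8 and 24.1 FPKM in the Tet3-null and 30.5 and 20.1 FPKM in the wild-type libraries, nearly all of it Tnfaip6. Fibroblast markers summed to 1.93 and 1.29 FPKM in the Tet3-null and 2.12 and 3.63 FPKM in the wild-type 2-cell libraries. Blood markers summed to 15.2 to 21.3 FPKM in blastocysts, nearly all of it Cd68, and Hbb-b1 was at 0 in all 8. Cd68, a macrophage protein and the only blood marker tested, was called lower in Tet3-null 2-cell embryos, where 2.72% of all genes tested were called. It was at 2.001 and 2.08 FPKM in the Tet3-null and 4.82 and 5.82 FPKM in the wild-type libraries (log2 change -1.05, limma adjusted p = 0.0477). That call held in 2 of 14 alternatives, with an adjusted p of up to 0.376, and was lost when any library but the first Tet3-null 2-cell library was left out. Relative depth estimated from the steps of low values was 1.32 and 1.27 in the Tet3-null and 1 and 1.13 in the wild-type blastocysts.

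Across the 8 libraries, the genes most like the mean of the 10 on the log2(FPKM + 1) scale were Rnpepl1, Tns1, Huwe1, Man2b2 and Rhobtb2, with Pearson r of 0.997 to 0.998. This likeness is a description dominated by stage, and 130 genes exceeded 0.99. Tns1 was at 1.29 and 1.17 FPKM in the Tet3-null and 2.02 and 1.72 FPKM in the wild-type blastocysts, and at 0 in all 4 2-cell libraries. Man2b2 was at 3.65 and 2.77 FPKM in the Tet3-null and 5.29 and 4.22 FPKM in the wild-type blastocysts, and also at 0 at the 2-cell stage. Of the members themselves, Lamc1 was closest to the mean of the other 9, with r of 0.998, and Nid2 farthest, with 0.358.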

How the data were processed

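RNA-seq of pooled embryos was read from 8 files of FPKM, which the authors deposited. Per the submitters' processing notes, the tools were Cufflinks 2.2.0, TopHat2 2.0.10 and Bowtie2 2.1.0, and the build was mm9. Which annotation and parameters were used, and how reads shared between genes were treated, was not given in the sources used here. Per the labels' protocols, cDNA was amplified with a SMARTer low-input kit, which favours polyadenylated RNA, and the library kit keeps no strand, so antisense reads cannot be told apart. Amplification from few cells makes low values noisy, and the read totals are unknown.

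Values were taken as log2(FPKM + 1). The 13549 genes that reached 1 FPKM in 2 or more libraries were fitted in limma 3.58.1 (R 4.3.3) with 4 group means and a spread shared by all 8 libraries. Tet3-null was compared with wild type in blastocysts and in 2-cell embryos, these 2 effects with each other, and blastocysts with 2-cell embryos per genotype. P-values were adjusted over all genes tested (Benjamini-Hochberg), with a threshold of 0.05, and intervals are at 95%, not adjusted over genes. Groups were said to lie apart where every library of one was above every library of the other.

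All 10 members are named, together with related genes called for genotype and, per list, up to 2 stage-called genes with the largest mean rise and 2 with the largest mean fall. There were 6 related lists and 7 marker lists with 154 entries, of which 6 matched by synonym. Some genes that this rule would name are not reported here. Members and lists were chosen with earlier results of these data known. Alternatives were a pseudocount of 0.1, no filter, median-of-ratios and quantile scaling, the spread of only the libraries compared, a replicate block, and leaving out each library. Promoter windows came from RefSeq (GRCm38.p6).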

Additional observations from a re-analysis of the deposited data

How the results depend on the processing

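Each group had 2 libraries, and read totals are unknown. Leaving out a library leaves 1 in its group, so the spread in such a fit comes from the other groups alone. The count of members called in blastocysts for genotype was 0 under each alternative, and the count called by stage was 8 in each genotype under each alternative except without the filter, where Hspg2 made it 9 in wild-type embryos. Leaving out single libraries gave 0 to 1 called in 2-cell embryos and 0 to 1 for the difference between stages, the 1 being Sparc and Lama1 without the first Tet3-null 2-cell library. Over all genes, the 2-cell genotype comparison called 368, but 31 with the replicate block, 3 with the spread of its own 4 libraries, and 8 to 3453 with a library left out. In blastocysts it called 9 genes, and 6 to 47 under the alternatives. The difference between stages called 19 genes, 13 to 1703 with a library left out and 13 to 110 under the other alternatives. Deviations of same-numbered libraries from their group means correlated at -0.0756 to 0.0184. With 2 libraries in each group this cannot tell whether same-numbered pools shared females or days. With the replicate block the counts of members called were 0, 0, 0, 8 and 8, as without it. Signs turned for many of the results below, and the cause was not tested. They did not turn for the blastocyst changes of Lamb1, Lamc1 and Nid2, or for Sparc with a pseudocount of 0.1. In 2-cell embryos the log2 changes after median-of-ratios scaling were 0.014 for Lama1, 0.0099 for Lamc1 and 0.13 for Nid2. After quantile normalization they were 0.13 for Lama1, 0.0089 for Lama5, 0.18 for Lamc1, 0.071 for Col4a1 and 0.16 for Nid2. In blastocysts Col4a2 was at 0.020 after median-of-ratios scaling and 0.035 after quantile normalization, where Lama5 was at 0.0053. For the difference between stages, Col4a1 was at 0.25 and Sparc at 1.21 with a pseudocount of 0.1, and Sparc was at -0.10 after median-of-ratios scaling and -0.14 after quantile normalization, and Lama5 at -0.0036 after quantile normalization. With single libraries left out, the 2-cell changes ran from -0.11 to 0.060 for Lama1, -0.16 to 0.39 for Lamb1, -0.26 to 0.027 for Lamc1, -0.15 to 0.043 for Col4a1, -0.20 to 0.022 for Nid2 and -0.025 to 0.17 for Serpinh1. The blastocyst changes ran from -0.48 to -0.09 for Lamb1, -0.55 to -0.27 for Lamc1, -1.09 to -0.31 for Nid2, -0.21 to 0.070 for Lama5 and -0.22 to 0.0069 for Col4a1. The difference between stages ran from -0.039 to 0.24 for Lama5, -0.17 to 0.058 for Col4a1 and -0.84 to 0.86 for Sparc. The stage change of Nid2 in Tet3-null embryos ran from -0.53 to 0.25.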
